A study of Homo sapiens with 24 samples.

Results

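HGC27, an established line from an undifferentiated human gastric carcinoma, was compared between SG21, which the labels give as TMEM97 Knockout, and Parental cells, both grown in medium with FBS. The comparison takes 6 of the 24 libraries of the study, 3 of each line, chosen by their labels for line and medium. Both lines were in high glucose DMEM for 3 days, and RNA was then collected from samples called independent, with no word on what was separate. Every p-value therefore measures only the spread between libraries of the same group, estimated over all 24 libraries of the study. Beside the 6 libraries stand 3 libraries of SGCTRL (SG Control, WT) and 3 of SG12, another line with the label TMEM97 Knockout, in FBS, and 6 libraries of SG21 and Parental cells in medium with LPDS, usually lipoprotein-deficient serum. The sources used here do not give where the guides cut, or whether SG21 is 1 clone or a pool. A difference between SG21 and Parental cells therefore holds the edit, the history of the line and its selection together, and these cannot be told apart.

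TMEM97, also called the sigma-2 receptor, is a small membrane protein of the endoplasmic reticulum and lysosome that binds NPC1, the transporter that lets cholesterol leave the lysosome. Cells sense sterols in the endoplasmic reticulum. When sterols are low, the transcription factor SREBP-2, encoded by SREBF2, is freed and switches on the enzymes of cholesterol synthesis. Serum with FBS supplies lipoprotein cholesterol, so it is the state in which this pathway is usually held down.

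Each gene is read here under the name of the entry that shares its exons on the opposite strand, since most reads lie on the strand opposite to the name they are counted under. The entry follows the gene in parentheses, and the reading covers 2833 protein-coding genes, called source genes below. Levels are CPM, reads per M reads on genes. Such an overlap is a part of the gene only, and levels are compared between samples and not between genes. The 6 libraries held 2.399 to 3.96 M reads on genes. A small share of reads leaks to the other strand, and it was larger in Parental cells. Entries of protein-coding genes with no gene opposite them, which hold mostly such reads, took 3.39% to 3.65% of reads on genes in SG21 and 3.79% to 4.56% in Parental cells. Under their own names, 33 ribosomal protein genes summed to 188 to 301 CPM in SG21 and 983 to 2039.6 CPM in Parental cells. Parental replicate 2 stood apart from the other libraries of its group, with a chi-square per degree of freedom of 14.6 and 9.95 against replicates 1 and 3, where the other pairs within a group gave 3.05 to 4.12. Of 11 epithelial and gastric markers, none could be read on the opposite strand, and EPCAM, ESRP1 and TFF1 had no read under their own names. The labelled epithelial cell type is therefore not checked by them, and the marker that dominates the mesenchymal sum is vimentin. Leukocyte markers summed to 21.3 to 23.7 CPM in SG21 and 12.9 to 25.3 CPM in Parental cells, nearly all from CD68, with CD14 and ITGAM at 0. Endothelial markers summed to 0 to 0.749 CPM, with CDH5 and KDR at 0.

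TMEM97 itself was lower in SG21 but far from absent. TMEM97 (IFT20), on chromosome 17 from 28319095 to 28328685 in hg38, stood at 76.2, 72.9 and 78.8 CPM in SG21 and 110.4, 88.5 and 117 CPM in parental cells. All 3 SG21 libraries were below all 3 parental ones. The log2 fold change was -0.47 ± 0.12 (SE), and it passed the test (edgeR adjusted p = 0.00551, quasi-likelihood test with Benjamini-Hochberg adjustment over all 12822 entries tested). Beside this, SGCTRL libraries held 139.9, 116 and 136 CPM and SG12 libraries 57.5, 49.7 and 51.3 CPM. The 361 bases counted lie in the untranslated part of the transcript, so RNA there does not check a cut elsewhere in the gene. IFT20, the neighbouring intraflagellar transport gene that is read under the TMEM97 name, had 74.5, 59.7 and 51.0 CPM in SG21 and 68.4, 61.0 and 71.8 CPM in parental cells, which overlapped, with a log2 fold change of -0.12 (edgeR adjusted p = 0.583).

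**Figure D1:**
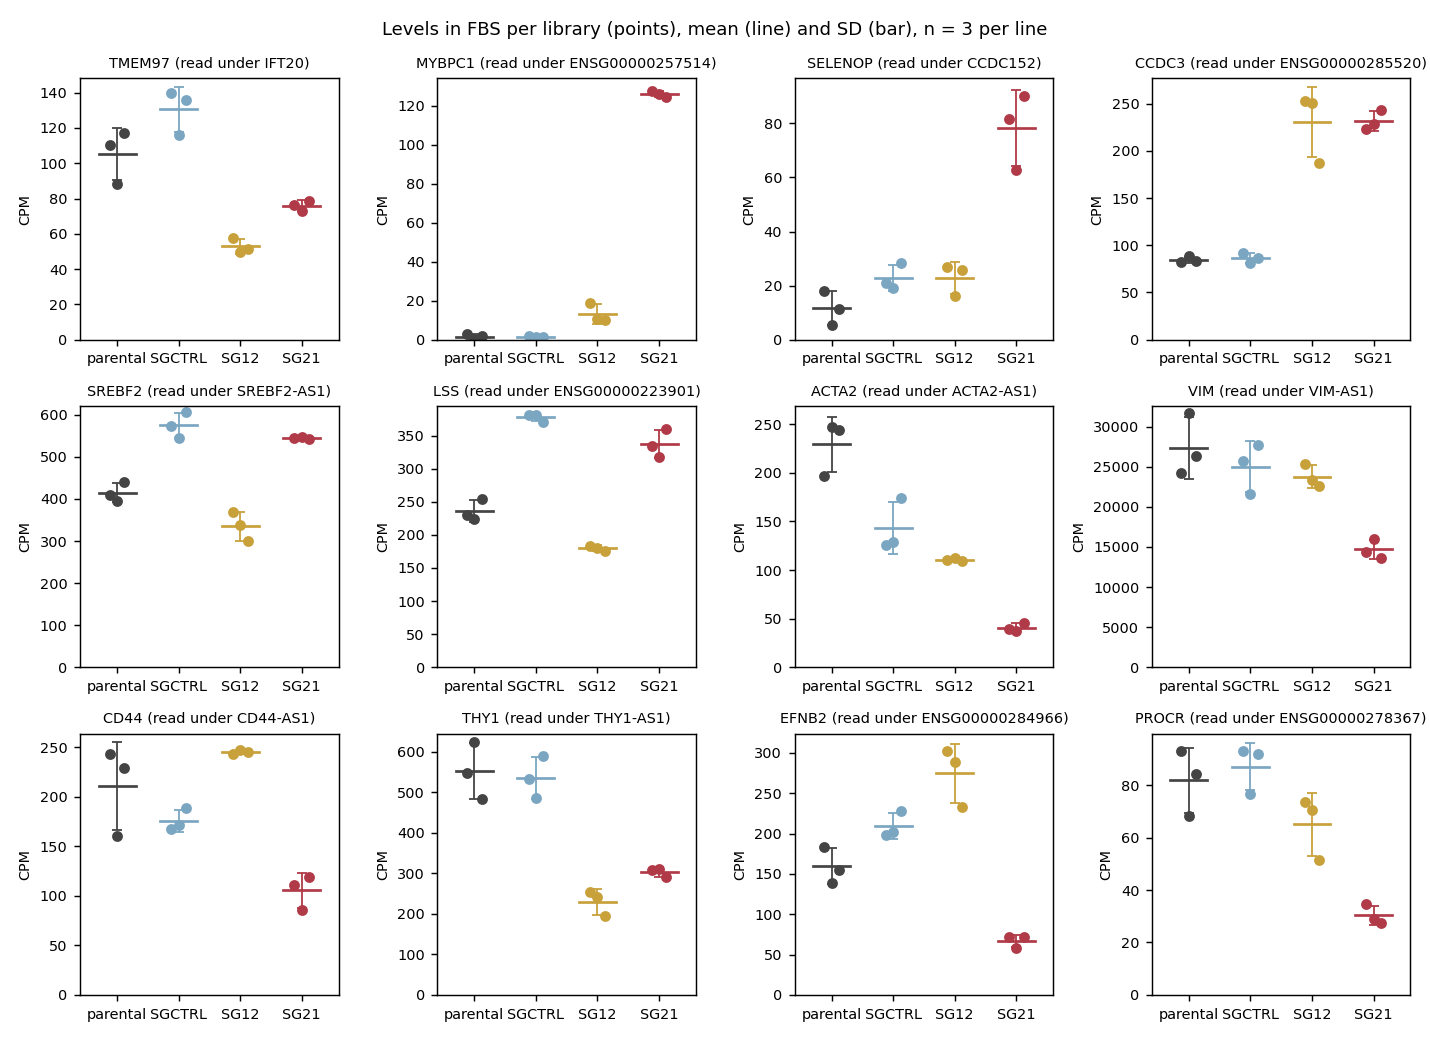
CPM of 12 genes in FBS, 1 panel per gene, with 1 point per library, the mean as a line and the SD as a bar for each of 4 lines (n = 3). MYBPC1 lies between 125 and 128 CPM in SG21 and under 2.83 CPM in Parental cells, while ACTA2, VIM, EFNB2 and PROCR are lowest in SG21.

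Of all 12822 entries tested, 3088 passed (24.1%). Across source genes, 724 of 2833 passed the test (25.6%), 470 higher in SG21 (16.6%) and 254 lower (8.97%), around a median log2 fold change of 0.11. The 3 libraries of each line were fully apart for 1109 source genes (39.1%). This split of 64.9% higher among the calls depends on the scale. It was 47.0% (325 higher and 366 lower) when libraries were scaled on the source entries alone, 53.1% (263 and 232) with a spread from the 6 libraries alone, and 37.4% (101 and 169) with the leaked share as a covariate. Without parental replicate 2, 535 source genes passed. Directions of small changes below, of about the size of these shifts, are therefore tied to the scale, and the median moved from 0.11 to 0.02 with scaling on the source entries.

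Among cholesterol genes, 3 of the 6 enzymes that could be read rose modestly in SG21. LSS (ENSG00000223901), lanosterol synthase, which closes the sterol rings, had 334, 318 and 359 CPM in SG21 and 230.3, 224 and 254 CPM in parental cells. No library of one line reached the range of the other. Its log2 fold change was 0.52 ± 0.10 (SE) (edgeR adjusted p = 0.000205). ACAT2 (TCP1), the cytosolic acetoacetyl-CoA thiolase that opens the pathway, had 423, 355 and 410.2 CPM in SG21 and 266, 278 and 239.8 CPM in parental cells, again with no overlap and a log2 fold change of 0.60 ± 0.10 (SE) (edgeR adjusted p = 5.12e-05). HMGCS1 (ENSG00000261604), HMG-CoA synthase, had 1255, 1131 and 1298 CPM in SG21 and 1004, 902 and 979 CPM in parental cells, also apart, with a log2 fold change of 0.35 ± 0.10 (SE) (edgeR adjusted p = 0.0109), a call that was lost without parental replicate 2 (0.31), without SG21 replicate 3 (0.31) and with the leaked share as a covariate (0.28). The other 3 enzymes did not pass, and the log2 fold changes were 0.18 for IDI1, the isopentenyl diphosphate isomerase, and 0.19 for FDFT1, squalene synthase. FDFT1 turned to -0.033 without parental replicate 1.

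Of 7 sterol transport and control genes, 2 rose and 1, TMEM97, fell. SREBF2 (SREBF2-AS1) had 544, 548 and 542 CPM in SG21 and 411, 395 and 440.3 CPM in parental cells. The SG21 values lay within a few CPM of each other and above every parental value, with a log2 fold change of 0.39 ± 0.11 (SE) (edgeR adjusted p = 0.00766), which fell to 0.28 and did not pass with the leaked share as a covariate. GRAMD1A (ENSG00000271032), which carries plasma membrane cholesterol to the endoplasmic reticulum, had 41.0, 46.7 and 46.2 CPM in SG21 and 21.4, 19.3 and 20.3 CPM in parental cells. All SG21 values were above all parental values, and the log2 fold change was 1.13 ± 0.21 (SE) (edgeR adjusted p = 0.00012). NPC1 (RMC1) had 40.3, 39.9 and 40.1 CPM in SG21 and 60.0, 33.1 and 54.0 CPM in parental cells, where the parental libraries spanned the SG21 ones. It did not pass (edgeR adjusted p = 0.244), but passed as lower without parental replicate 2 (-0.51). SGCTRL against the same Parental libraries gave log2 fold changes of 0.68 for LSS, -0.27 for ACAT2, 1.03 for HMGCS1 and 0.47 for SREBF2. For SG12 the values were -0.39, -1.06, -0.99 and -0.31 in the same order. These comparisons share the parental libraries and are set beside SG21 as values only.

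The promoter of SREBF2 is shown because SREBP-2 acts on its own gene through a sterol regulatory element, here in capitals. It is the 250 bases before the start, chr22:41832855-41833104 on the plus strand of GRCh38.p14, from RefSeq.
SREBF2 promoter: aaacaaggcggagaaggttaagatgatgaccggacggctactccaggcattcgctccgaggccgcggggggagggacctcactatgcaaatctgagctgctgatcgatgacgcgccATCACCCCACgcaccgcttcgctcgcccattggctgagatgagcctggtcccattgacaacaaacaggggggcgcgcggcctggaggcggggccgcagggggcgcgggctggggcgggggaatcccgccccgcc
The letters in capitals were searched on both strands, and the match lies from -134 to -125 relative to the start. It occurs in 12 of 35116 RefSeq promoters of this length (0.0342%), and a match is a description of the letters and not of binding. The promoters of HMGCS1 and LSS, searched in the same way, did not hold it.

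In fatty acid and glycerolipid synthesis, 3 of 12 members rose, where 16.6% of all source genes did: FADS1 (FADS2), the delta-5 desaturase, at a log2 fold change of 0.46, ACSL3 (ACSL3-AS1), an acyl-CoA synthetase of lipid droplets, at 0.89, and ACLY (ENSG00000274630), which makes cytosolic acetyl-CoA, at 0.26. No member passed with scaling on source entries, with the leaked share as a covariate, or without parental replicate 2. SGCTRL gave 0.29, 1.52 and 0.21 for these 3. In glycolysis 3 of 5 rose. ALDOA (ENSG00000274904), an aldolase, had 2182, 2015 and 1981 CPM in SG21 and 1500.2, 1163 and 1426 CPM in parental cells, and ALDOC (ENSG00000265168), its other form, 1268, 1364 and 1532 CPM in SG21 and 944, 773 and 903 CPM in parental cells. In both, each SG21 library was above each parental library, at log2 fold changes of 0.60 ± 0.09 (SE) and 0.67 ± 0.10 (SE) (edgeR adjusted p = 8.66e-06 and 9.07e-06). The third, GAPDH, was at 0.24, and with the leaked share as a covariate none of the 3 passed and GAPDH turned to -0.044. Beside these, SGCTRL stood at 0.11 for ALDOA, 0.68 for ALDOC and 0.19 for GAPDH, as high as SG21 for ALDOC. Hypoxia genes had 5 of 9 members higher and none lower in FBS, at a median log2 fold change of 0.33. In LPDS 1 of the 9 passed as higher and 2 as lower, at a median of -0.08. ANKRD37 (UFSP2), a target of hypoxia-inducible factor, had 136, 139 and 137 CPM in SG21 and 73.5, 75.3 and 63.7 CPM in parental cells. Its libraries were fully apart at a log2 fold change of 0.95 ± 0.14 (SE) (edgeR adjusted p = 3.23e-06). MXI1, an antagonist of MYC, was at 0.56, ERO1A, an oxidase of protein folding, at 0.37, LOX, lysyl oxidase, at 0.34, and VEGFA, the angiogenic growth factor, at 0.33. SGCTRL gave 0.23 for ANKRD37, 0.28 for MXI1, 0.27 for LOX and 0.55 for VEGFA, and SG12 gave 1.12 for VEGFA, so that both other lines were above SG21 for VEGFA. Only 1 of the 9 passed with the leaked share as a covariate. Leaving out a single library ended the call of MXI1 (SG21 2), ERO1A (SG21 1 or 3 or parental 2), LOX (SG21 1 or 3 or parental 2), VEGFA (parental 1), GAPDH (SG21 3 or parental 2), FADS1 (SG21 1 or parental 1 or 2), ACSL3 (SG21 1 or parental 2 or 3) and ACLY (SG21 1 or 3 or parental 2 or 3).

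**Figure D2:**
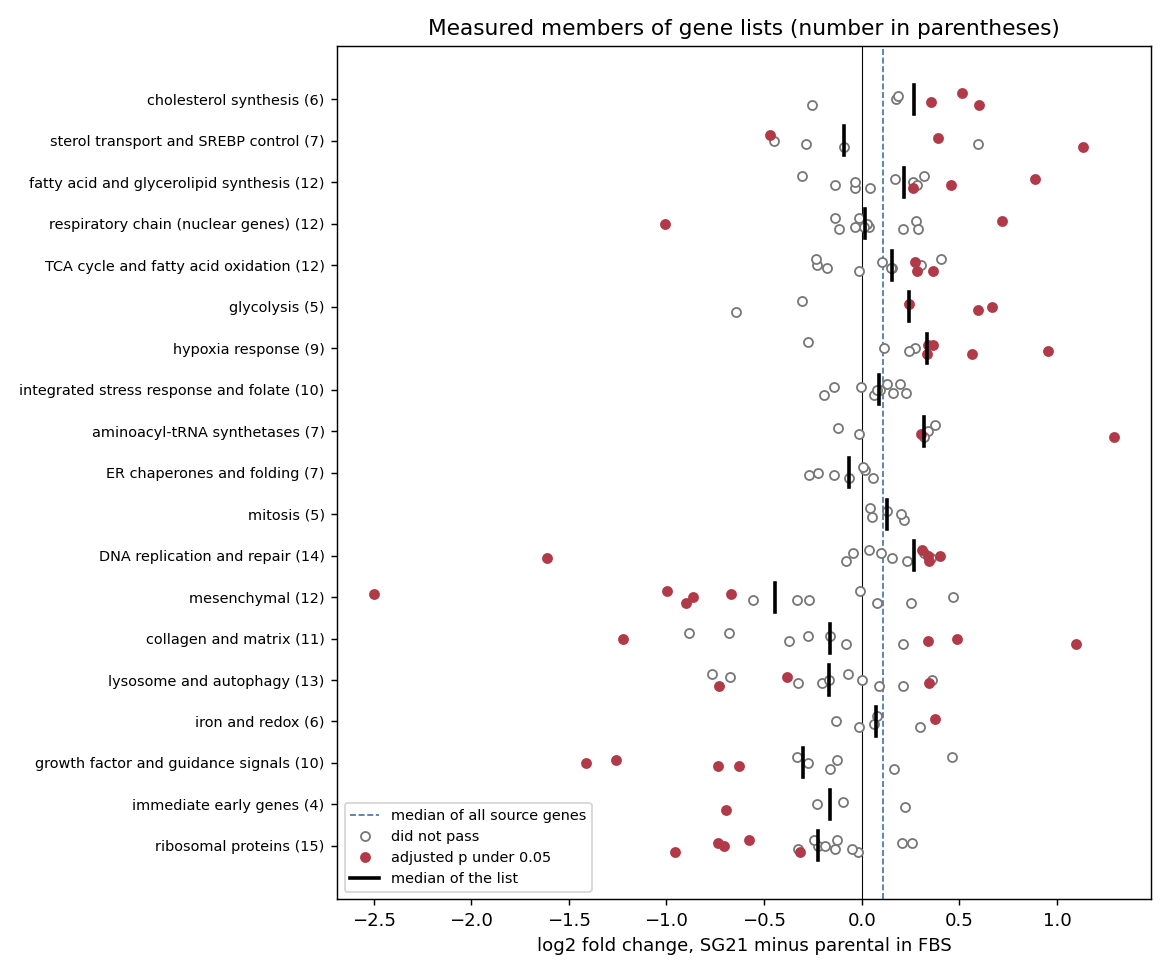
Log2 fold change of SG21 against Parental cells in FBS for the readable members of gene lists with at least 4 of them each. Filled points passed, open points did not, thick bars are list medians and the dashed line is the median of all source genes, 0.11. The mesenchymal list has the lowest median, -0.44, and the hypoxia list the highest, 0.33.

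Of 12 mesenchymal genes, 5 fell in SG21 and none rose, where 8.97% of all source genes fell, with a median log2 fold change of -0.44 beside 0.11 over all source genes. ACTA2 (ACTA2-AS1), smooth muscle actin, had 39.0, 37.0 and 45.9 CPM in SG21 and 197, 248 and 244 CPM in parental cells. The SG21 values were all far below the parental ones, and the log2 fold change was -2.50 ± 0.14 (SE) (edgeR adjusted p = 1.36e-15). VIM (VIM-AS1), vimentin, the main intermediate filament of mesenchymal cells, had 14413, 15990.1 and 13675 CPM in SG21 and 24164, 31659 and 26292 CPM in parental cells, without overlap, at -0.90 ± 0.11 (SE) on the log2 scale (edgeR adjusted p = 2.22e-07). CD44 (CD44-AS1), the hyaluronan receptor, had 111, 85.9 and 119 CPM in SG21 and 243, 160.0 and 229 CPM in parental cells, apart as well, at -1.0 ± 0.13 (SE) (edgeR adjusted p = 6.37e-07). THY1 (THY1-AS1), a surface protein of fibroblasts, had 309, 311 and 289.9 CPM in SG21 and 548, 623 and 484 CPM in parental cells, with every SG21 library lower, at -0.86 ± 0.11 (SE) (edgeR adjusted p = 4.06e-07). TWIST1 (ENSG00000232821), a transcription factor of the mesenchymal programme, fell by 0.67 on the log2 scale. SGCTRL stood at -0.68 for ACTA2, -0.13 for VIM, -0.26 for CD44 and -0.042 for THY1, and SG12 at -1.05, -0.20, 0.22 and -1.26 in that order. The other 7 members did not pass, with log2 fold changes from -0.56 for ZEB1 to 0.47 for ZEB2, both repressors of epithelial genes, and ZEB2 passed as higher without parental replicate 3 (0.71). Between 5 and 7 members fell under every alternative run. Fibroblast markers summed to 373 to 406 CPM in SG21 and 735 to 1065 CPM in Parental cells. THY1 was the largest part in both, followed by FAP in SG21 and by COL1A1, under its own name, in Parental cells. FAP (ENSG00000236841) overlapped between the lines, with 68.1, 46.7 and 50.1 CPM in SG21 and 59.4, 61.5 and 58.4 CPM in parental cells. The part of such cells or of leaked reads in the sums was not tested. Only 2 epithelial and gastric genes could be read, and they moved apart: ESPN (TNFRSF25), the actin bundler espin, rose by 1.47 and GATA6 (ENSG00000266283), a transcription factor of the gut, fell by 0.54 on the log2 scale.

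Of 10 genes in the growth factor and guidance list, 4 fell, none rose and 6 did not pass, beside the same 8.97%. EFNB2 (ENSG00000284966), the ligand of Eph receptors, had 71.2, 57.9 and 71.3 CPM in SG21 and 183, 139 and 155 CPM in parental cells. No SG21 value reached the parental range, at a log2 fold change of -1.26 ± 0.12 (SE) (edgeR adjusted p = 2.73e-09). NKD1 (ENSG00000205414), a feedback inhibitor of Wnt signalling that binds Dishevelled, had 95.6, 89.1 and 93.3 CPM in SG21 and 208, 344 and 187 CPM in parental cells, again apart, at -1.41 ± 0.16 (SE) (edgeR adjusted p = 2.41e-08). NRP1 (ENSG00000238258), a co-receptor of semaphorins and VEGF, was at -0.73, and IGFBP7 (IGFBP7-AS1), a secreted IGF-binding protein, at -0.63, a call lost without SG21 1 or parental 2 (-0.37 without parental 2). Against the same parental libraries SGCTRL gave 0.40 for EFNB2 and -0.70 for NKD1, and SG12 gave 0.79 and 1.48. JUNB (HOOK2), an immediate early transcription factor, fell by 0.69. Among matrix genes 3 of 11 rose and 1 fell. COL18A1 (SLC19A1), the collagen that yields endostatin, had 196, 218 and 203 CPM in SG21 and 87.8, 105 and 94.96 CPM in parental cells. Its SG21 libraries were all higher, at 1.10 ± 0.11 (SE) (edgeR adjusted p = 5.08e-09). LAMA5, a laminin chain, was at 0.49, LOX at 0.34, and LOXL1 (LOXL1-AS1), a lysyl oxidase of elastic fibres, at -1.22. PROCR (ENSG00000278367), the protein C receptor, which belongs to no list, had 34.6, 28.96 and 27.6 CPM in SG21 and 92.9, 68.3 and 84.4 CPM in parental cells. These were apart, at -1.43 ± 0.17 (SE) (edgeR adjusted p = 1.41e-07).

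For NKD1 and PROCR the longest unbroken coding stretch of the counted overlap is printed, and any other overlapped bases are not shown. Both are coding sequence on the plus strand of GRCh38, chr16:50608294-50608360 for NKD1 (67 bases) and chr20:35174702-35174919 for PROCR (218 bases), and nothing is set in capitals.
NKD1: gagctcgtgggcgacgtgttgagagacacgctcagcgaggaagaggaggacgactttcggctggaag
PROCR: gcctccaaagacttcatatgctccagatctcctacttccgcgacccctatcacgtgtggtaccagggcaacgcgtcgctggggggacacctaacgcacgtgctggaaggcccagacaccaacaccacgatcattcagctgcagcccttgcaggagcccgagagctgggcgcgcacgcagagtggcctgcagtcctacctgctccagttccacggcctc

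Among ribosomal proteins 5 of 15 fell and none rose, at a median log2 fold change of -0.23, where 8.97% of all source genes fell. RPS3A (SH3D19), of the small subunit, had 751, 759 and 691 CPM in SG21 and 1446, 1626 and 1189 CPM in parental cells, and the lines did not overlap, at a log2 fold change of -0.95 ± 0.10 (SE) (edgeR adjusted p = 3.86e-09). RPS28, also of the small subunit, was at -0.74, and RPL38, RPL17 and RPL30, of the large subunit, were at -0.70, -0.58 and -0.31. SGCTRL stood at -0.19 for RPS3A, -0.40 for RPL17 and -0.39 for RPL30. Of 7 aminoacyl-tRNA synthetase genes 2 rose, among them CARS1, which charges cysteine tRNA, at 1.29, beside 1.19 in SGCTRL. DNA replication and repair had 4 of 14 higher and 1 lower. The risers were small, RRM1 of ribonucleotide reductase at 0.40, XRCC3 of recombination at 0.35, MSH6 of mismatch repair at 0.34 and RAD54L at 0.31, and none passed with the leaked share as a covariate. The faller, POLL (DPCD), DNA polymerase lambda, had 66.1, 51.2 and 77.1 CPM in SG21 and 201, 221 and 170.4 CPM in parental cells, wide apart, at -1.61 ± 0.13 (SE) (edgeR adjusted p = 3.38e-11). No member of the mitosis, ER chaperone or integrated stress response lists passed, of 5, 7 and 10 measured. A single library left out ended the calls of RPL38 (SG21 1 or 3 or parental 1 or 3), RPL30 (SG21 2), RRM1 (SG21 1 or parental 2 or 3), MSH6 (SG21 1 or parental 3) and RAD54L (SG21 1 or 3 or parental 1, 2 or 3).

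In mitochondria and lysosomes, changes were split. Of 12 nuclear genes of the respiratory chain, NDUFB9 (MTSS1), a complex I subunit, rose by 0.72 and NDUFB8 (HIF1AN), another, fell by 1.01 on the log2 scale, and 10 did not pass. NDUFB8 libraries held 298, 299.6 and 265 CPM in SG21 and 545, 672 and 514 CPM in parental cells, so that no parental library came near the SG21 level. SGCTRL lay between them, with 378, 346 and 409 CPM, at -0.61 against the same parental libraries, and SG12 was at -0.13. SG21 against SGCTRL was at -0.39 (edgeR adjusted p = 0.0351). Of the overlap counted for NDUFB8, 90.5% lies in exons of non-coding transcripts. In the TCA cycle and fatty acid oxidation 3 of 12 rose, among them PDHB of pyruvate dehydrogenase at 0.37 and ECI2, of fatty acid oxidation, at 0.27, and none of the 3 passed with the leaked share as a covariate. Of 13 lysosome and autophagy genes, CTSA (ENSG00000271984), cathepsin A, fell with 159.6, 152 and 174 CPM in SG21 and 272, 237 and 298 CPM in parental cells. All parental libraries were higher, and the log2 fold change was -0.73 ± 0.11 (SE) (edgeR adjusted p = 4.89e-06). SQSTM1, the autophagy receptor p62, was at 0.34 and WIPI1, which binds the forming autophagosome, at -0.38. PRDX2, a peroxiredoxin, was the only 1 of 6 iron and redox genes to pass, at 0.38. The calls of PDHB (parental 3), ECI2 (SG21 1 or 3 or parental 1, 2 or 3) and WIPI1 (SG21 1, 2 or 3 or parental 1, 2 or 3) were lost when the library in parentheses was left out.

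Among source genes above 48.6 CPM on average, where 99% of entries with no gene opposite lie below, HNRNPU (COX20), a nuclear RNA-binding protein, rose most among those whose libraries did not overlap, with 347, 312 and 308 CPM in SG21 and 102, 72.7 and 90.9 CPM in parental cells. The lines were fully apart, at a log2 fold change of 1.86 ± 0.17 (SE) (edgeR adjusted p = 4.12e-10). CACNA1H (TPSG1), a T-type calcium channel, had 80.3, 93.1 and 89.1 CPM in SG21 and 35.8, 28.4 and 19.9 CPM in parental cells, at 1.62 ± 0.16 (SE), and CCDC3 (ENSG00000285520), a secreted protein, had 224, 228 and 244 CPM in SG21 and 82.5, 88.2 and 83.2 CPM in parental cells, at 1.45 ± 0.14 (SE). In each, the lowest SG21 value was above the highest parental value. Other rises among the 15 largest were ARHGAP33 (1.54), LRATD2 (1.47), ACBD6 (1.43), SNAP47, a SNARE protein (1.39), MPI, mannose phosphate isomerase (1.31), FXYD6, a regulator of the sodium pump (1.11), COL18A1, GPR146 (1.06), ANKRD37, CCM2L (0.92) and CFAP410 (0.91). SGCTRL against the same parental libraries gave 1.04 for FXYD6, 1.09 for CCM2L, 1.22 for LRATD2, 0.91 for MPI, 0.88 for ARHGAP33, 0.83 for HNRNPU, 0.83 for CACNA1H and 0.037 for CCDC3, so that the control line lay close to SG21 for FXYD6 and CCM2L and near the parental level for CCDC3. In SG12 the values were -3.05 for FXYD6, 2.03 for CACNA1H and 1.45 for CCDC3. Of the 15 largest falls, EFNB2, NKD1, PROCR and LOXL1 are given above. PIEZO2 (ENSG00000264843), a mechanosensitive channel, had 48.5, 41.4 and 37.6 CPM in SG21 and 98.3, 125 and 107 CPM in parental cells, apart, at -1.38 ± 0.14 (SE) (edgeR adjusted p = 7.15e-09), beside -0.47 in SGCTRL and -1.72 in SG12, and the other 10, ACTA2 and POLL among them, all lie on chromosome 10.

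Lower in abundance, some genes changed more, and these were picked out after their values were seen. MYBPC1 (ENSG00000257514), a myosin-binding protein of skeletal muscle, was nearly silent in Parental cells. Its libraries held 128, 126 and 125 CPM in SG21 and 2.82, 0.293 and 1.62 CPM in parental cells, at a log2 fold change of 6.28 ± 0.29 (SE) (edgeR adjusted p = 2.89e-18), beside 1.70, 1.58 and 1.14 CPM in SGCTRL and 18.9, 10.7 and 9.86 CPM in SG12. SELENOP (CCDC152), the selenium carrier, had 81.7, 62.7 and 90.2 CPM in SG21 and 18.0, 5.57 and 11.4 CPM in parental cells. All SG21 values were above the parental ones, at 2.73 ± 0.24 (SE) (edgeR adjusted p = 2.26e-10). LAMA1, a laminin chain, was at 2.03, JAKMIP2 at 2.29 and SMPDL3B, a membrane-bound phosphodiesterase, at 1.97. Against the same parental libraries SGCTRL gave 0.97 for SELENOP, 1.42 for LAMA1, -1.06 for JAKMIP2 and 0.39 for SMPDL3B. In SG12 the values were 0.96, -5.52, 1.37 and -0.84 in that order. NEFL (ENSG00000272157), neurofilament light chain, fell in SG21, with 4.40, 6.99 and 5.85 CPM there and 46.2, 65.9 and 49.9 CPM in parental cells. The lines were fully apart, at -3.20 ± 0.26 (SE) (edgeR adjusted p = 2.85e-11). SG12 was also low for NEFL, at -3.87 against the same parental libraries, and SGCTRL was at 0.90. LHX2 (ENSG00000234921), a LIM homeobox transcription factor, had 1 read in the 3 SG21 libraries together and 103 in the 3 parental ones. At equal depth this is a ratio of 115 between the lines, with an exact 95% interval of 20.2 to 4595 that covers counting error only. CTR9, TCN2, NPHS1 and QPCTL were also among the 8 largest falls at any level (-2.38 to -2.17), and none of these 4 passed in LPDS. For CTR9, TCN2, NPHS1 and QPCTL in that order, SGCTRL gave -1.94, -1.85, -0.88 and -1.76 against the same parental libraries. SG12 gave -0.22, -1.71, -1.17 and -2.20. SG21 against SGCTRL in FBS did not pass for CTR9, TCN2 and QPCTL (edgeR adjusted p = 0.594, 0.635 and 0.633). It passed for NPHS1 (edgeR adjusted p = 0.0267).

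Genes lower in SG21 lay side by side on the long arm of chromosome 10. From PLCE1 to TRIM8 (chr10:94030812-102660680, hg38), all 16 source genes had log2 fold changes below 0, where 38.5% of source genes did, and 14 passed as lower, where 8.97% did. Their median was -1.30, and the values ran from -0.50 (PLCE1, a phospholipase C) to -1.72 (ACTR1A). The run was noticed in the values, so it is described without a test. PLCE1 lost its own call without SG21 1 or 2 or parental 1 or 3. ACTR1A (ENSG00000273262), the Arp1 actin-like filament of dynactin, had 166, 186 and 176 CPM in SG21 and 506, 704 and 525 CPM in parental cells. LZTS2 (PDZD7), which restrains beta-catenin, had 120.3, 108 and 126 CPM in SG21 and 318, 306 and 325 CPM in parental cells. CWF19L1 (CHUK-DT) had 47.8, 45.4 and 36.5 CPM in SG21 and 121, 147 and 89.7 CPM in parental cells. In each, all parental values were above all SG21 values. FBXL15, an F-box protein, was at -1.43, DNMBP, an activator of Cdc42, at -1.32, MRPL43, of the mitochondrial ribosome, at -1.29, and TRIM8, a ubiquitin ligase, at -1.37. POLL and NDUFB8, described with their pathways, are in this run. FRAT2 (-1.14) and PSD (-0.62) did not pass, though PSD did without parental replicate 1 (-0.88), and PSD and FBXL15 are read over the same overlap.

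The ends of the run were sharp on one side. Beyond TRIM8, CNNM2 was at -0.074 and NT5C2, a nucleotidase, at 0.29 (a call lost without SG21 1 or 3 or parental 2 or 3), and 29 source genes had a median of 0.14 (8 higher, 1 lower). On the other side the genes next to the run were also low, but less so. From FAM149B1 to FGFBP3 (chr10:73168166-91909483), all 22 genes were below 0, 13 passed as lower, and the median was -0.47, with ACTA2 and KCNMA1, the BK potassium channel (-2.25), the lowest. The ends of this stretch were also set after the values were seen. That all 22 lie below 0 therefore follows in part from where it was cut, and it is described without a test. The values of PAPSS2 and FGFBP3 were close to 0 and turned above 0 under some alternatives, as did CNNM2 without SG21 replicate 2 or parental replicate 2. Before FAM149B1, 39 genes had a median of 0.02 (6 higher, 7 lower), and VIM is one of them. In SGCTRL against Parental cells the PLCE1 to TRIM8 genes had a median of 0.05, and in SG12 -0.22, as values beside it. The 22 genes from FAM149B1 to FGFBP3 had a median of -0.18 in SGCTRL (3 lower) and -0.52 in SG12 (12 lower). SG12 was thus about as low there as SG21, and KCNMA1 was at -3.22 in SG12 and -0.42 in SGCTRL. Entries read under their own names, other rows of the tables, gave 22 entries in the run with a median of -1.78 and 16 lower, where over 2410 such entries the median was -0.51 and 25.1% were lower. On a fixed grid of 10 Mb windows with at least 6 source genes, 171 windows, the lowest median was the window from 100 to 110 Mb of chromosome 10 (-1.29). Between 11 and 14 of the 16 genes passed under every alternative run.

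For CWF19L1, inside the run, the longest unbroken coding stretch of the counted overlap is shown. It is 141 bases at chr10:100233231-100233371 on the minus strand of GRCh38, with no capitals.
CWF19L1: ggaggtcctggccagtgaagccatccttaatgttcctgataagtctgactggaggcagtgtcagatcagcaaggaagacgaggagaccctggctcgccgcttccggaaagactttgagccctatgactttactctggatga

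**Figure D3:**
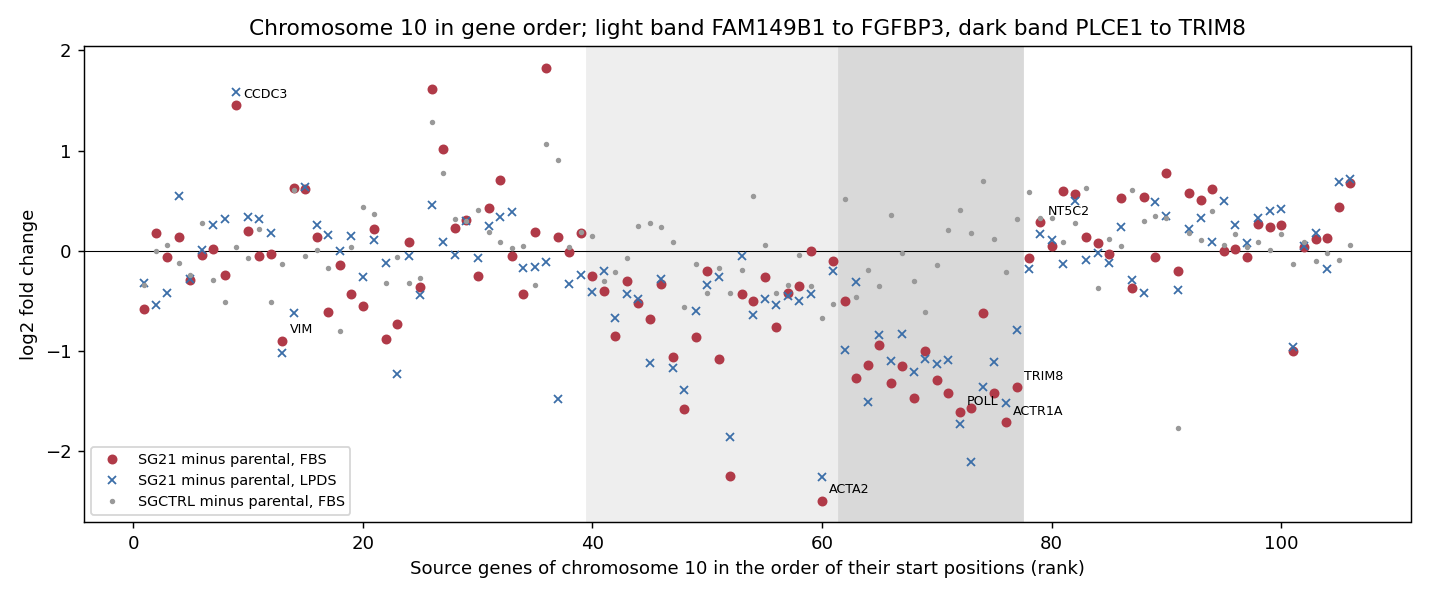
Log2 fold change against Parental cells for 106 source genes of chromosome 10, placed by rank of start position. Red circles are SG21 in FBS, blue crosses SG21 in LPDS and grey dots SGCTRL in FBS. In the dark band all 16 SG21 values in FBS are below 0, and the first genes to its right are at -0.07 and 0.29.

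The same lines in LPDS, other libraries, mostly showed the same directions, but the 3 SG21 libraries there were not alike. Relative to gene reads, ambiguous ones stood at 2.71% in SG21 replicate 1 and at 2.15% and 2.18% in replicates 2 and 3. Parental libraries in LPDS held 2.60% to 2.65%. In the same SG21 order IDI1 had 487, 245 and 225 CPM and MT-ND6 512, 59.0 and 66.0 CPM. ACTA2 did not split this way, with 54.5, 61.9 and 45.1 CPM. The cause was not tested. In LPDS 592 of the 2833 source genes passed (20.9%). Of the 470 source genes higher in FBS, 422 had the same sign in LPDS and 188 (40.0%) passed as higher there. Of the 254 lower ones, 236 had the same sign and 126 (49.6%) passed, where 12.7% of all source genes passed as higher and 8.19% as lower in LPDS. ACTA2 was at -2.26, VIM at -1.03, CD44 at -1.36, EFNB2 at -1.12, MYBPC1 at 4.79 and SELENOP at 2.90 on the log2 scale in LPDS. The PLCE1 to TRIM8 genes had a median of -1.11 there, with 14 of 16 lower. TMEM97 was at -0.31 and did not pass (edgeR adjusted p = 0.0952). A test of the difference between media passed for 24 of 2833 source genes (0.847%), 14 of them among the 724. ARHGAP33, a GTPase activator, was 1.54 in FBS and 0.39 in LPDS, and LOX was 0.34 and -0.34. WIPI1 was -0.38 and -1.42. None of these 3 passed with a term for the split of libraries by ambiguous reads. This count rests on few libraries: over all 12822 entries it was 107 (0.835%), 31 without parental replicate 2 in FBS, 236 without parental replicate 1, 60 without SG21 replicate 1, 46 without SG21 replicate 3, and 6 with the term for that split.

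**Figure D4:**
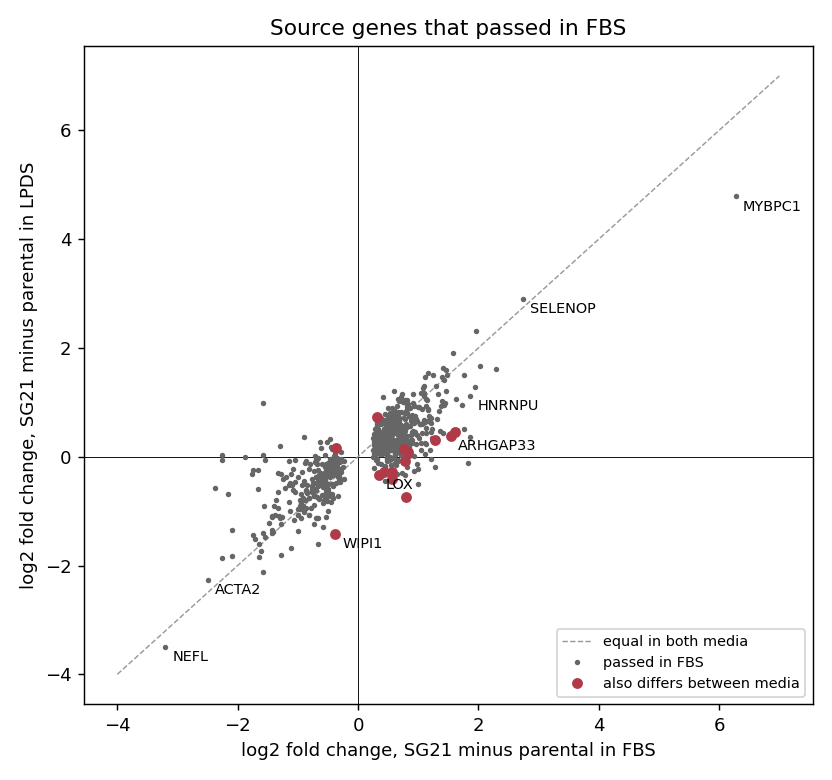
Each point is a source gene that passed in FBS, with its log2 fold change of SG21 against Parental cells in FBS on the x axis and in LPDS on the y axis. LHX2 is left out because SG21 had 1 read. Red points, of which there are 14, also passed the test of a difference between media. MYBPC1 lies at 6.28 and 4.79.

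Reads under the names of the 13 mitochondrial coding genes were higher in SG21 in FBS. They summed to 4480.2, 4324 and 3298 CPM in SG21 and to 2597, 742 and 1965 CPM in Parental cells. Every SG21 library was above every parental one, and parental replicate 2 was the lowest. Of the 13 entries 11 passed as higher, at a median log2 fold change of 1.12. In LPDS the median was -1.06. SGCTRL and SG12 against the same parental libraries in FBS had medians of -0.19 and 0.40. The FBS count was 4 without parental replicate 2, 5 with the DESeq2 Wald test and 2 with the leaked share as a covariate. Which strand of the mitochondrial transcripts these reads come from was not tested.

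**Figure D5:**
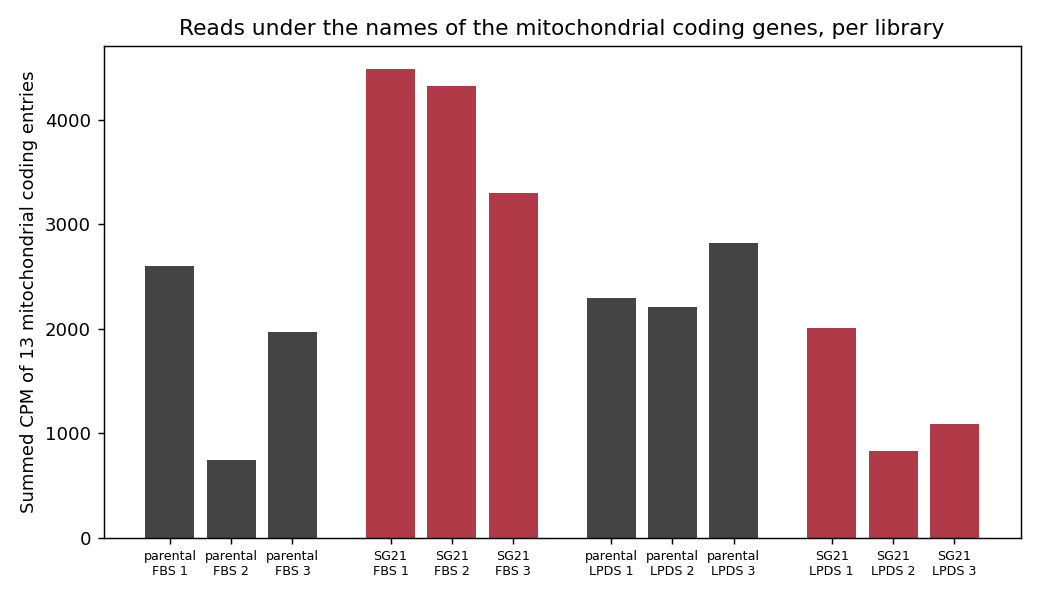
Summed CPM of the 13 mitochondrial coding entries, 1 bar per library, for Parental cells (grey) and SG21 (red) in FBS and LPDS. In FBS all 3 SG21 bars are higher than the parental bars, and in LPDS all 3 are lower.

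Entries read under their own names, with no gene opposite, fell in SG21 far more often than source genes, 604 of 2410 (25.1%) against 146 higher (6.06%), at a median of -0.51, beside the larger leaked share of Parental cells given above, whose part in these falls was not tested. Against the same parental libraries the median of these entries was -0.44 in SGCTRL and -0.47 in SG12, close to the SG21 value. The largest falls at an average log2 CPM of at least 2 were GBF1 (-3.93), RPL13A (-3.88), RPL29 (-3.86) and NOLC1 (-3.84), and GBF1 and NOLC1 lie between PLCE1 and TRIM8 on chromosome 10. Of 46 histone entries, 4 of which share exons with a gene opposite, 29 were lower, at a median of -1.42, and among the other 42 it was 26, at -1.45. The median of the 46 was -1.88 in SGCTRL and -1.52 in SG12, at least as low as in SG21. The count of 29 was 18 without parental replicate 2 and 3 with the leaked share as a covariate. Against this direction, the wider set also held rises. ULK2, a kinase of autophagy, had 41.3, 39.2 and 32.0 CPM in SG21 and 1.97, 4.10 and 6.09 CPM in parental cells. PLXNA4, a semaphorin receptor, had 22.7, 19.2 and 18.7 CPM in SG21 and 2.53, 1.76 and 2.43 CPM in parental cells. Both were fully apart, at 3.25 ± 0.34 (SE) and 3.15 ± 0.44 (SE) (edgeR adjusted p = 5.87e-09 and 1.43e-06). LRRC71 was at 2.22, and RAB7B, a small GTPase of endosomes, had 10.8, 3.74 and 4.73 CPM in SG21 and 0.282, 0.293 and 0.406 CPM in parental cells, where parental libraries held about a single read each.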

How the data were processed

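Per the labels' protocols, total RNA of HGC27 cells was isolated with a Qiagen kit and made into ribosome-depleted, stranded Illumina libraries. The deposited tables hold raw read counts per gene entry, and no value was changed. Per the submitters' processing notes, reads were handled with bcl2fastq and STAR on hg38. The counting program, its strand setting and annotation are not given in the sources used here. Closing entries for reads on no gene (94.3% to 94.6% of uniquely aligned reads) stayed out.

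All 24 libraries were fitted in R 4.3.3 with edgeR 4.0.16 (quasi-likelihood test, TMM, filterByExpr, a mean per group). Benjamini-Hochberg adjustment ran over 12822 entries, and adjusted p under 0.05 passed. SE is the absolute log2 fold change over the square root of F. In simulated data for SG21 against Parental cells in FBS, on 12822 genes, 51% of genes changed by 1 on the log2 scale were called, 14% of those changed by 0.5, and 3 unchanged ones.

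Source genes come from GENCODE 29. An entry is read as the gene on the other strand with at least 80% of the exon overlap (50 bases or more), if it is protein-coding and above 5.74 CPM, the 90th percentile of 9464 entries with no gene opposite, and 37 were set aside as likely leaked. Named were TMEM97, IFT20 and sterol genes, up to 4 passing members of each list, the 15 largest rises and falls above the 99th percentile with libraries apart, and 4 own-name entries each way, and some of these are not reported here. Members, lists and the source reading were chosen with earlier results of these data known. RefSeq gave promoters (GRCh38.p14). Alternatives were DESeq2 1.42.0 scaling and Wald test, other count filters, a spread of the 6 libraries, a replicate block, other library sizes, the leaked share as a covariate, a term for the library split, scaling on source entries (added after seeing the data) and each library left out.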

Additional observations from a re-analysis of the deposited data

Results flagged for a closer look

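The difference between SG21 and Parental cells was not the same in both media for 3 of the source genes named, by the test of the difference itself (LPDS minus FBS, log2, edgeR quasi-likelihood test with Benjamini-Hochberg adjustment). It was -0.68 for LOX (adjusted p = 0.0154), -1.04 for WIPI1 (adjusted p = 0.00719) and -1.15 for ARHGAP33 (adjusted p = 0.00719). With the term for the library split none of the 3 passed (edgeR adjusted p = 0.153, 0.166 and 0.139), and LOX was also lost without parental replicate 2 in FBS (adjusted p = 0.0535) and with the leaked share as a covariate (adjusted p = 0.0775).

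The same test passed for 10 mitochondrial entries read under their own names. The differences were -2.30 for MT-ATP6, -1.72 for MT-CO1, -2.03 for MT-CO3, -2.14 for MT-CYB, -1.94 for MT-ND1, -2.20 for MT-ND2, -2.61 for MT-ND3, -2.35 for MT-ND4, -2.37 for MT-ND4L and -2.16 for MT-ND5. None of the 10 passed with the term for the library split (edgeR adjusted p from 0.145 to 0.348), 6 did without parental replicate 2 in FBS, 8 without SG21 replicate 2, and 9 with the DESeq2 Wald test or the leaked share as a covariate.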

How the results depend on the processing

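With the leaked share as a covariate, 789 entries passed in place of 3088, 270 source genes in place of 724, 29 list members in place of 54 and 38 entries for the difference between media in place of 107, where Parental cells and SG21 differ in that share, so that the covariate and the line can hardly be told apart. Calls for the difference between media were 213 with the DESeq2 Wald test, 264 with no count filter, 161 with the replicate block and 6 with the term for the library split, and 31 to 236 when 1 library was left out. In LPDS, 653 entries passed with that term in place of 1450. Entries called in FBS ranged from 1967 to 3153 when 1 library was left out. With the covariate, signs turned for GAPDH (-0.044), MT-ATP8 (-1.04), SHLD2 (0.49), PAPSS2 (0.10) and FGFBP3 (0.57), and with no count filter for PAPSS2 (0.026). With 1 library left out, values crossed 0 for FDFT1 (-0.033 to 0.43), MT-ATP8 (-0.43 to 3.31), MT-CO2 (-0.049 to 0.68), PAPSS2 (-0.16 to 0.24), FGFBP3 (-0.25 to 0.23) and CNNM2 (-0.39 to 0.20). The cause was not tested. Of 147 genes followed, 125 passed, and 71 of these gave the same result under all 16 alternatives. TMEM97, followed beside these 147, gave the same result under all 16 too. Same-numbered libraries of the 2 lines had correlations of 0.184, 0.269 and 0.0614 over 8060 entries, and each SG21 library correlated best with its own number, but the last is below the limit for pairing. With the replicate block 3174 entries and 764 source genes passed, and no call changed among the 147. Differences of 0.5 on the log2 scale were mostly missed at this depth in simulated data.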
